A study of Mus musculus with 6 samples.

Results

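Macrophages and dendritic cells of the gut wall were followed through 10 genes: Csf1r, Lyz2, C1qa, C1qb, C1qc, Adgre1, Cd14, Cx3cr1, Itgax and Cd68. The genes were chosen by symbol, and their values were taken from an RNA-seq table of 22700 rows. Gene names in this table stand beside the values of other genes, and a rule on ranks returned 12402 names to a row. Of the 10 genes, 8 received a row. Adgre1 and Cx3cr1 lie outside the rank ranges of the rule and were not analysed here. The 8 genes had at least 1 FPKM in each of the 6 libraries. FPKM is a read density that takes account of transcript length and of the reads mapped in each library. None of the 8 therefore passed the later filter on FPKM through 1 genotype alone. Whether a gene received a row at all depended on its rank, and the named rows reach down only to 0.954 FPKM in the wild type library W83S.

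RNA came from the middle small intestinal mucosa of 3 alk-SMase knockout (KO) mice and 3 wild type (WT) mice, all of strain C57BL/6, with 1 library per mouse. In the KO mice exon 2 of the gene for alkaline sphingomyelinase (alk-SMase, also NPP7, gene Enpp7) was deleted by the Cre-loxP system, which shifts the reading frame. The Cre driver, the ages and the sexes are not given in the sources used here, and no treatment was named for either genotype. The KO libraries are K79S, K82S and K86S, and the WT libraries are W83S, W89S and W90S, and values per library are given in this order throughout.

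Macrophages of the intestinal lamina propria are replaced from blood monocytes and depend on the receptor Csf1r. They clear dead cells and microbes, while dendritic cells take up antigen and carry it to lymph nodes. The members fall into receptors (Csf1r for the growth factors Csf1 and Il34, Cx3cr1 for fractalkine, Cd14 for lipopolysaccharide, and Adgre1, the F4/80 antigen), an integrin chain (Itgax, CD11c, used to mark dendritic cells), secreted proteins (the 3 chains of complement C1q and lysozyme Lyz2) and a lysosomal membrane protein (Cd68). Alk-SMase itself is an enzyme of the epithelial surface that splits sphingomyelin and also inactivates platelet-activating factor, a lipid signal to leukocytes.

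The enterocyte markers of mucosa were high in every library, with Vil1 between 897 and 1445 FPKM. Several libraries stood apart. W83S alone held stomach and pancreas genes, whose 8 placed genes summed to 28249 FPKM against at most 4.04 FPKM in the other libraries. K82S held the most leukocyte RNA, with 131.8 FPKM over 7 pan-leukocyte genes against 34.8 to 76.2 FPKM in the other libraries. Enpp7, the deleted gene, stood at 604.5, 129 and 669.7 FPKM in the KO libraries and at 406, 667 and 495 FPKM in the WT libraries, so its RNA did not separate the genotypes. Because the FPKM covers all exons of Enpp7, it cannot check the deletion of exon 2. K79S had the Y-linked gene Ddx3y at 0.0279 FPKM, where the other libraries had 2.93 to 4.01 FPKM.

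The level of the 8 genes, per length and averaged over the 6 libraries, fell in the order Lyz2 (85.7 FPKM), C1qa (24.6), C1qb (15.8), C1qc (10.4), Csf1r (4.72), Cd14 (3.47), Cd68 (2.87) and Itgax (1.74). C1qa stood above C1qb, C1qb above C1qc, C1qc above Csf1r and Cd68 above Itgax in 6 of 6 libraries. Lyz2 was above C1qa in 4 libraries, Csf1r above Cd14 in 5 and Cd14 above Cd68 in 4, so these neighbours were not separated by the spread between mice.

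KO was compared with WT to ask whether the RNA level of these genes in the mucosa differed between the genotypes. Csf1r and Itgax were the genes whose 3 KO libraries all lay above the 3 WT libraries, and both were about 1.5 times as high in KO by the ratio of the means (1.52 for each). The C1q chains, Cd14 and Cd68 overlapped between the genotypes, and Lyz2 varied about 10-fold (10.5) between libraries without separating the genotypes. In bulk tissue, a change in the number of cells of a type and a change in RNA per cell cannot be told apart. The cells that a gene's RNA came from are not known either. None of the 8 genes (0) passed the threshold of an adjusted p under 0.05 with a fold change above 1.5 or below 2/3 (limma on log2(FPKM + 1), Benjamini-Hochberg adjustment over 13089 rows), which 1 row of all passed (0.00764%). At an unadjusted p under 0.05 there were 2 members, both higher in KO, where 2.87% of all rows were called higher and 9.64% lower. For 2 members the genotypes did not overlap, both higher in KO, beside 5.9% of all rows in that direction and 11.3% in the other. The median log2 fold change was 0.20 over the 8 members and -0.06 over all rows, and 7 of the 8 members lay above the median of all rows. As single libraries weigh much here, the counts were repeated without the libraries that stood apart. Without K82S no member (0) passed the threshold (0.4% of all rows higher and 8.88% lower). The median of the members was then 0.074, and 5 of the 8 lay above the median of all rows (-0.092). Csf1r was then higher and Lyz2 and Cd14 lower at an unadjusted p under 0.05 (4.1% of all rows higher and 21.6% lower), and Csf1r and Itgax lay above WT and Lyz2 and Cd14 below WT without overlap (11.9% and 32.3% of all rows). Without K79S there were 4 members at an unadjusted p under 0.05, all higher in KO (2.14% of all rows), and 5 without overlap, all higher (8.85%). Without K82S and W83S, Lyz2 alone passed the threshold and the unadjusted p, both times lower in KO (8.55% and 21.3% of all rows), and 2 members lay above and 2 below WT without overlap (14.4% and 38.4%).

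**Figure D1:**
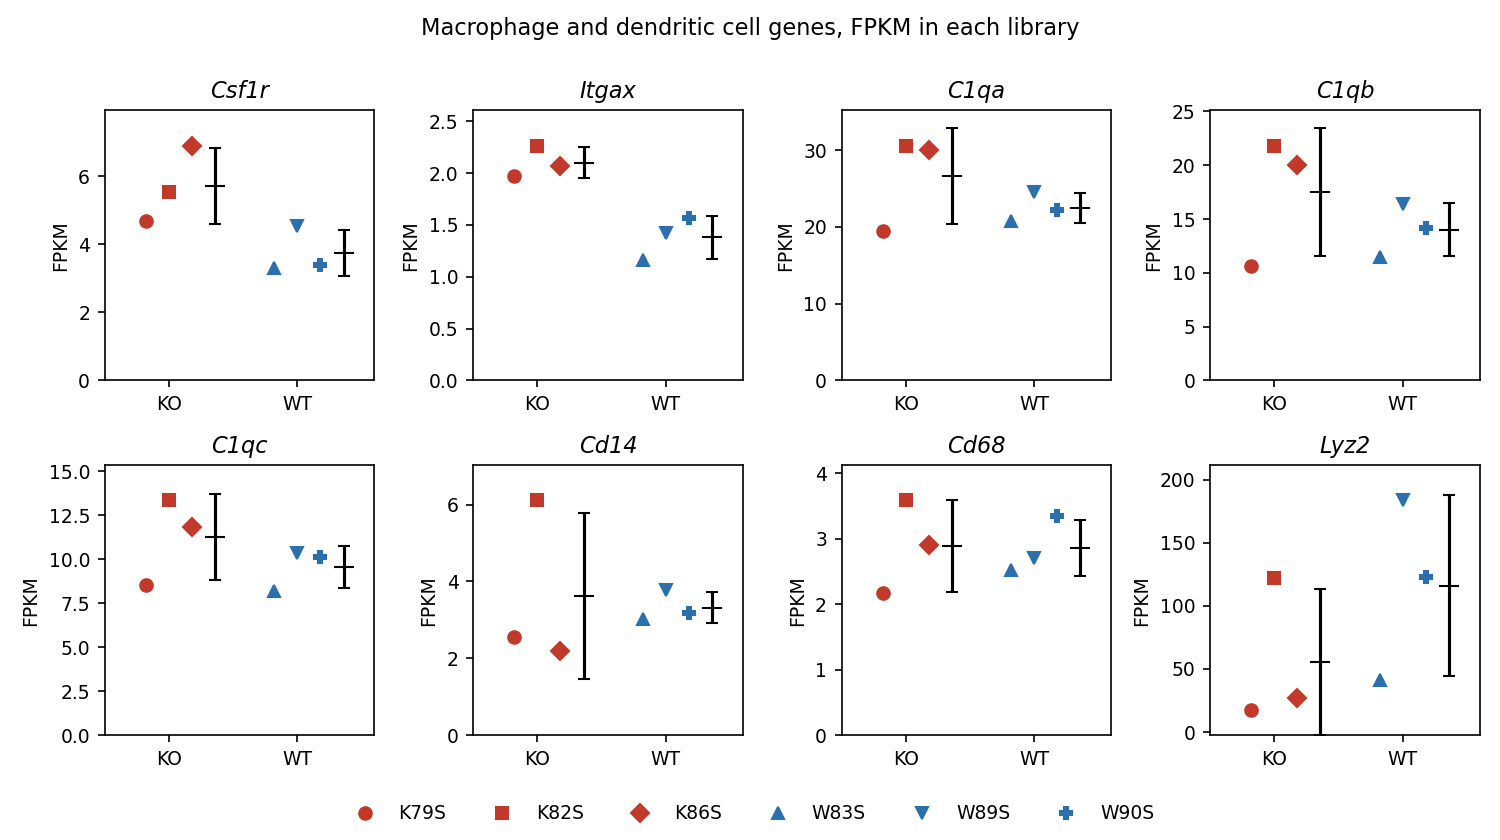
FPKM (vertical axis, linear) of the 8 genes in each of 6 libraries, with red points for KO, blue points for WT, 1 marker shape per library, and a black bar for the mean and SD of 3 libraries, which for Lyz2 in KO runs below 0. The KO points lie above all WT points for Csf1r and Itgax, and the K82S point (red square) lies far above the other KO points for Cd14 (6.11 FPKM) and Lyz2 (122 FPKM).

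Csf1r encodes the tyrosine kinase receptor on which macrophages depend for survival, and lies on chromosome 18 (mm10) between 61100598 and 61132149 (plus strand). Csf1r measured 4.69, 5.52 and 6.90 FPKM in the KO libraries, and 3.32, 4.53 and 3.39 FPKM in the WT libraries. The lowest KO library stood just above the highest WT library, W89S, so the gap between the genotypes was narrow. The mean of the KO mice was 5.70 ± 1.12 and that of the WT mice 3.74 ± 0.682 FPKM (SD, n = 3). On the log2(FPKM + 1) scale, which understates changes of low genes, the log2 fold change was 0.49 (standard error 0.18, 95% interval 0.075 to 0.91). Its p was 0.0272 unadjusted and 0.393 adjusted (limma), and a two-sided exact permutation test over the mice returned 0.1, the smallest p that 3 against 3 allow. Without W83S, the library with stomach and pancreas genes, the unadjusted p from limma was 0.0886.

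Itgax encodes the alpha chain of the integrin CD11c/CD18, and lies on chromosome 7 between 128129547 and 128150657 (plus strand). Itgax measured 1.97, 2.27 and 2.07 FPKM in the KO libraries, and 1.16, 1.42 and 1.57 FPKM in the WT libraries. The KO libraries were close to each other and each stood above each WT library, although all values were low. The mean of the KO mice was 2.10 ± 0.151 and that of the WT mice 1.38 ± 0.207 FPKM (SD, n = 3). The log2 fold change was 0.38 (standard error 0.14, 95% interval 0.060 to 0.71), and its p was 0.0268 unadjusted and 0.393 adjusted (limma). The exact permutation test again gave its smallest p of 0.1. Without K82S or without W83S the unadjusted p from limma was 0.0544 and 0.0992. CD11c is carried by dendritic cells, by many gut macrophages and also by some activated T cells. Of 8 T cell genes 5 had a row, and they summed to 21.3 to 35.6 FPKM in KO and to 13.9 to 16.9 FPKM in WT, with all 5 higher in each KO library than in each WT library (5.9% of all rows). The part of T cells in the Itgax difference was not tested.

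**Figure D2:**
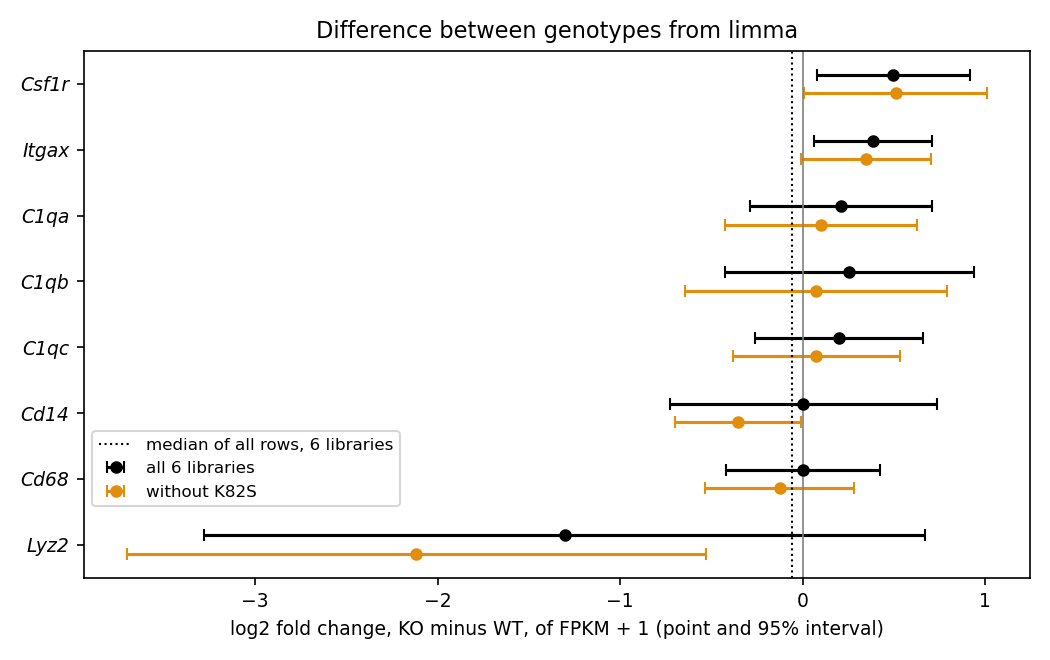
Log2 fold change of FPKM + 1, KO minus WT, for the 8 genes (points) with the 95% interval from limma (bars), in black for all 6 libraries and in orange without K82S, with a dotted line at the median of all rows (-0.06). With all libraries the intervals of Csf1r and Itgax lie above 0 and the other 6 cross it, and without K82S those of Cd14 and Lyz2 lie below 0.

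C1q, the recognition part of the classical complement pathway, is built from 3 kinds of chain, and tissue macrophages are its main source. The 3 genes lie next to each other on the minus strand of chromosome 4, C1qb from 136880129 to 136886187, C1qc from 136889804 to 136893065 and C1qa from 136895917 to 136898803. C1qa measured 19.4, 30.6 and 30.0 FPKM in the KO libraries, and 20.7, 24.6 and 22.2 FPKM in the WT libraries. K82S and K86S were above all WT libraries and K79S below all of them, so the genotypes overlapped through K79S. C1qb measured 10.7, 21.8 and 19.98 FPKM in the KO libraries, and 11.5, 16.4 and 14.1 FPKM in the WT libraries, with the libraries in the same order of level as for C1qa. C1qc measured 8.56, 13.3 and 11.8 FPKM in the KO libraries, and 8.19, 10.4 and 10.1 FPKM in the WT libraries. K79S was the lowest library for C1qa and C1qb, and W83S was the lowest for C1qc. The log2 fold changes were 0.21 for C1qa (standard error 0.21), 0.25 for C1qb (0.29) and 0.20 for C1qc (0.19), with adjusted p from limma between 0.673 and 0.719. The 95% intervals reached from -0.43 to 0.94 for C1qb, the widest of them, which leaves room for a difference in either direction.

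The proportion of the chains varied less between libraries than their levels. C1qa was 1.40 to 1.82 times C1qb and 2.19 to 2.53 times C1qc over the 6 libraries. The ratio of C1qa to C1qc was 2.37 ± 0.147 in KO and 2.36 ± 0.168 in WT (SD, n = 3), so the spread between mice was larger than the difference between genotypes. The proportion of C1q to Csf1r moved more, since C1qa was 4.14, 5.54 and 4.34 times Csf1r in K79S, K82S and K86S, and 6.25, 5.43 and 6.55 times Csf1r in W83S, W89S and W90S. These ratios overlapped between the genotypes (exact permutation test, p = 0.2).

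**Figure D3:**
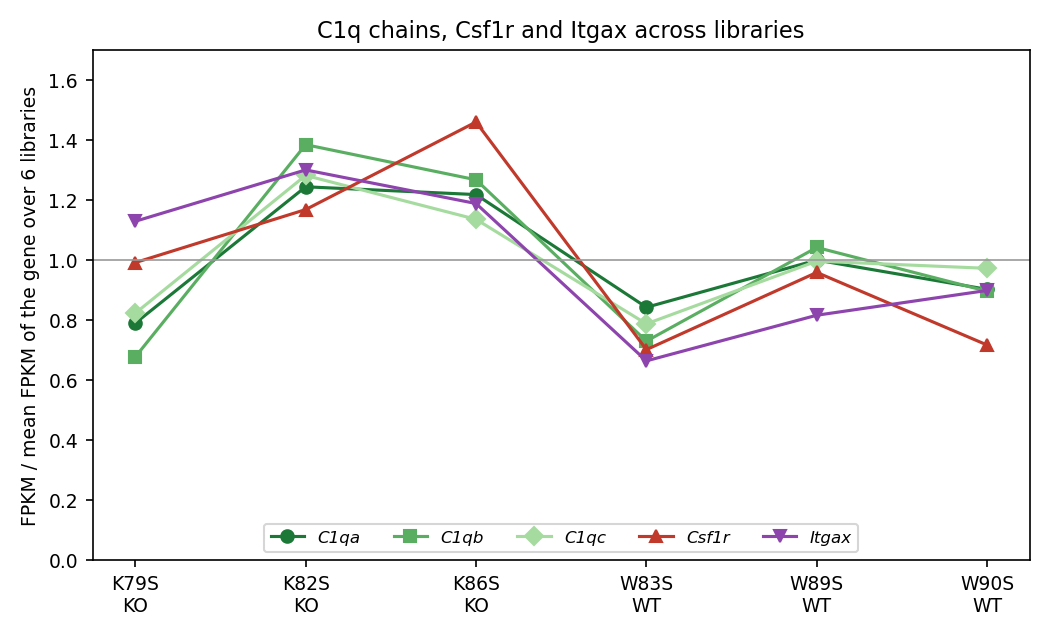
FPKM of C1qa, C1qb, C1qc (green), Csf1r (red) and Itgax (purple) divided by the mean of each gene over 6 libraries (vertical axis, linear, no unit), for each library (horizontal axis). The 3 C1q lines run close together and are low in K79S and W83S, and Csf1r peaks in K86S.

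As the C1q chains moved together over the libraries, the stretches before their transcription starts are shown. RefSeq promoters (GRCm38.p6) were found for 6 of the 10 genes, and those of C1qb and C1qc were among them. Each is given 5′ to 3′ on the minus strand, as the 250 bases before the RefSeq start. C1qb is at chr4:136886201-136886450 and C1qc at chr4:136892915-136893164. By GENCODE M21 the C1qc gene reaches 136893065, so part of its stretch lies inside the gene in that annotation. Capitals mark GAGGAA, the core bound by the macrophage factor PU.1, or its reverse complement TTCCTC.
C1qb: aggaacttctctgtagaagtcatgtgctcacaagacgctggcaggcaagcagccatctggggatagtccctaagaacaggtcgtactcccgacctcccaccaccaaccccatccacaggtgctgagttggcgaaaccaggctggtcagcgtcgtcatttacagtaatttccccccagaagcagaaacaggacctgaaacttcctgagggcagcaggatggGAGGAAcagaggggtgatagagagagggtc
C1qc: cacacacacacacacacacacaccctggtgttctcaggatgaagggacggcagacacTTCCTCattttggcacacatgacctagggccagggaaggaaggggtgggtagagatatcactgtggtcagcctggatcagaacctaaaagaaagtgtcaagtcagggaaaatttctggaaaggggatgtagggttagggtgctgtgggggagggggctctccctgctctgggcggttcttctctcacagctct
The motif begins 30 bases before the RefSeq start of C1qb on the strand shown, and 193 bases before that of C1qc on the other strand. Of the 6 promoters, 3 held it on either strand within the 300 bases of the RefSeq table, those of C1qb, C1qc and Cd68, beside 28.3% of all 32851 promoters. A match of letters is a description and no evidence of binding.

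Cd14 encodes the co-receptor that hands lipopolysaccharide to Toll-like receptor 4, and lies on chromosome 18 between 36725067 and 36726798 (minus strand). Cd14 measured 2.55, 6.11 and 2.20 FPKM in the KO libraries, and 3.01, 3.78 and 3.18 FPKM in the WT libraries. K82S was far above all other libraries, while the other KO libraries were below each WT library. The log2 fold change was 0.0035 (standard error 0.31, 95% interval -0.73 to 0.74), with an adjusted p of 0.997 from limma. Without K82S it was -0.36 (95% interval -0.70 to -0.0092), and its p was 0.0459 unadjusted and 0.185 adjusted (limma). K82S was also the library with the most leukocyte RNA, and the part of this in the Cd14 value was not tested.

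Cd68 encodes macrosialin, a protein of lysosomes and late endosomes that is used to stain macrophages, and lies on chromosome 11 between 69664213 and 69666153 (minus strand). Cd68 measured 2.17, 3.58 and 2.90 FPKM in the KO libraries, and 2.52, 2.71 and 3.34 FPKM in the WT libraries. The KO libraries spanned the whole range, with the lowest and the highest value among them. The log2 fold change was -0.00026 (standard error 0.18, 95% interval -0.42 to 0.42), so a change of more than about that size in either direction lay outside the interval. Of all 13089 rows, 30.2% varied less than Cd68 over the 6 libraries.

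Lyz2 encodes the lysozyme of macrophages and granulocytes, and lies on chromosome 10 between 117277331 and 117282321 (minus strand), next to Lyz1, the lysozyme of Paneth cells, from 117287797 to 117292868. Lyz2 measured 17.5, 122 and 27.0 FPKM in the KO libraries, and 41.0, 183.8 and 122.8 FPKM in the WT libraries. K82S, W89S and W90S were high and the others low, whatever the genotype. KO differed from WT by a log2 fold change of -1.30 (standard error 0.82, 95% interval -3.28 to 0.67, limma adjusted p = 0.504), and 98.8% of all rows varied less over the libraries. Without K82S the log2 fold change was -2.12 (unadjusted p = 0.0176, adjusted p = 0.106 from limma), and without K82S and W83S together it was -2.73 (adjusted p = 0.0335), the only setting in which a member passed the threshold.

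The libraries high and low in Lyz2 were those high and low in Paneth cell genes. Paneth cells are the secretory cells at the crypt base. Lyz1 measured 101.5, 816 and 185 FPKM in the KO libraries, and 361, 1905 and 1115 FPKM in the WT libraries, in the same order of libraries as Lyz2. The 7 Paneth cell genes, all with a row, summed to 609.5 FPKM in K79S and to 8541 FPKM in W89S, ranging from 609.5 to 4232 FPKM in KO and from 2343 to 8541 FPKM in WT. All 7 had a negative log2 fold change and none passed the threshold (0 at an unadjusted p under 0.05 in limma, and 7 of 7 without K82S, beside 21.6% of all rows lower in KO). The median of the 7 was -1.70. C1qa, in contrast, was about as high in K86S as in K82S, where Lyz2 stood at 27.0 and 122 FPKM. The part of Paneth cells in the Lyz2 level was not tested.

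The coding parts of Lyz2 and Lyz1 (GENCODE M21, mm10) are 447 bases each and are the same at 425 bases (95.1%). The longest run without a difference is 118 bases, longer than a read of 50 bases. Of the 1267 windows of 50 bases along the Lyz2 transcript, 195 (15.4%) also occur in the Lyz1 transcript, so reads from them could be counted for either gene. Coding bases 236 to 355 of both are given 5′ to 3′, from exon 2 into exon 3 on the minus strand, Lyz2 within chr10:117278668-117280706 and Lyz1 within chr10:117289144-117291094. Capitals mark the bases that differ, 3 of 120.
Lyz2: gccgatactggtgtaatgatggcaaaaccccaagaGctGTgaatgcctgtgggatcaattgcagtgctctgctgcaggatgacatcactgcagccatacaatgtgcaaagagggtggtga
Lyz1: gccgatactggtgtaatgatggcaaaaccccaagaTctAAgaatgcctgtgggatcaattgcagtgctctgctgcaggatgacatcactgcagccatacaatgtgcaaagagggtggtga
Lyz2 was 17.3%, 15.0% and 14.6% of the Lyz1 level in K79S, K82S and K86S, and 11.4%, 9.65% and 11.01% in W83S, W89S and W90S. This proportion was 15.6 ± 1.45% in KO and 10.7 ± 0.906% in WT (SD, n = 3) and did not overlap between the genotypes (exact permutation test, p = 0.1, the smallest possible). How far reads of Lyz1 entered the Lyz2 value was not tested.

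**Figure D4:**
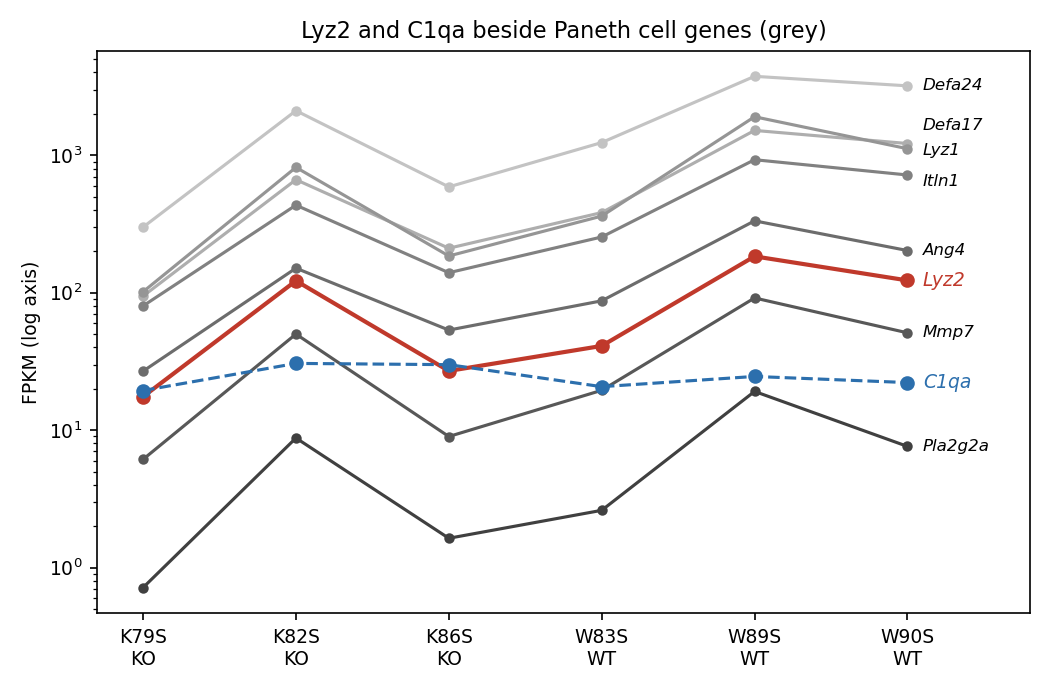
FPKM (vertical axis, log scale) of Lyz2 (red), C1qa (blue, dashed) and 7 Paneth cell genes (grey) in each library. Lyz2 rises and falls with the grey lines, from 17.5 FPKM in K79S to 183.8 FPKM in W89S, while C1qa stays between 19.4 and 30.6 FPKM.

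The partners of the members were looked at by lists. Of 12 genes of Csf1r and Cx3cr1 signalling 6 were tested, 5 with a positive log2 fold change, and 0 passed the threshold or an unadjusted p under 0.05 in limma. Il34, a ligand of Csf1r, averaged 1.65 ± 0.821 in KO against 1.33 ± 0.468 FPKM in WT (SD, n = 3), and the other ligand, Csf1, was not analysed here. Cx3cl1, the membrane-bound ligand of Cx3cr1, averaged 42.1 ± 10.6 in KO against 32.7 ± 6.34 FPKM in WT, which was 0.34 on the log2 scale (standard error 0.24). Grb2, an adaptor of receptor kinases, and Csf2ra, a receptor chain for Csf2, had log2 fold changes of 0.29 (standard error 0.16) and 0.33 (0.26), both with overlap. Of the 8 tested complement genes (16 in the list), 2 had an unadjusted p under 0.05 (2.87% of all rows higher in KO) and both lay without overlap above WT (5.9% of all rows). Without K82S, in which C2 was highest, 0 of the 8 had an unadjusted p under 0.05 in limma. C2, which is cut by the C1 complex in the classical pathway, had 10.9, 22.2 and 5.92 FPKM in the KO libraries against 4.12 to 5.63 FPKM in WT. This gave a log2 fold change of 1.05 with an adjusted p of 0.393 in limma (standard error 0.42). Serping1, the inhibitor of the C1 proteases, averaged 5.26 ± 1.94 in KO against 2.90 ± 0.213 FPKM in WT, and the difference was 0.64 on the log2 scale (standard error 0.24) with an adjusted p of 0.393 in limma. C1s1, a protease of the C1 complex, averaged 1.58 ± 0.707 in KO against 0.942 ± 0.106 FPKM in WT, with overlap. C1ra and C3 were not analysed here. Cfb, a protease of the alternative pathway and the most abundant gene of the list (77.9 ± 7.50 FPKM in KO and 78.6 ± 11.9 FPKM in WT), had a log2 fold change of -0.0061. Cd55, which protects cells from complement, overlapped between the genotypes (0.39, standard error 0.28).

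Around Cd14, 5 of 9 genes of the Toll-like receptor 4 complex were tested and 0 had an unadjusted p under 0.05 in limma, with a median log2 fold change of 0.077. Ly96, the protein that holds lipopolysaccharide on the receptor, averaged 1.51 ± 0.575 in KO against 1.78 ± 0.378 FPKM in WT, and Tlr4 was not analysed here. The signalling genes Ticam1, Myd88 and Irak4, the most abundant of the list, had log2 fold changes of 0.15, 0.23 and 0.077, all with overlap. Itgb2, the beta chain that pairs with Itgax, measured 3.90, 7.27 and 3.22 FPKM in the KO libraries, and 2.28, 2.97 and 3.50 FPKM in the WT libraries. Unlike Itgax it overlapped between the genotypes, with a log2 fold change of 0.51 (standard error 0.27, unadjusted p = 0.104 from limma), and Itgam was not analysed here. Fermt3, which activates leukocyte integrins, had a log2 fold change of 0.14 (standard error 0.34). Of 12 tested lysosome genes, 6 were positive and 6 negative, with a median of 0.036. Lamp1, Ctsz and Psap, the most abundant of them, had log2 fold changes of 0.093, -0.13 and -0.0045.

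Of 27 further macrophage genes 11 were tested, 8 with a positive log2 fold change, with a median of 0.22, and 0 passed the threshold. At an unadjusted p under 0.05 (limma) there were 2, both higher in KO, Fcer1g among them, beside 2.87% of all rows. Fcer1g, the signalling chain shared by Fc receptors, had 7.89, 10.1 and 9.92 FPKM in the KO libraries and 6.48, 6.79 and 5.65 FPKM in the WT libraries, without overlap. Its log2 fold change was 0.49 (standard error 0.15), close to that of Csf1r. Tyrobp, the partner chain of other myeloid receptors, averaged 11.9 ± 3.22 in KO against 12.01 ± 1.19 FPKM in WT (SD, n = 3), with overlap, and the difference between both chains was not tested. Ctss, Cyba and Apoe, the most abundant of the list, had log2 fold changes of 0.27, -0.086 and 0.22.

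Of 20 further dendritic cell genes 4 were tested, since most of the list lies outside the rank ranges. Irf8 and Itgae had an unadjusted p under 0.05 (limma), both higher in KO, beside 2.87% of all rows, and without K82S 1 of the 4 did (4.1% of all rows). Irf8, the factor of cross-presenting dendritic cells and also of other leukocytes, averaged 21.1 ± 4.53 in KO against 14.02 ± 2.42 FPKM in WT, which was 0.55 on the log2 scale (standard error 0.22). Itgae, the integrin chain CD103 of gut dendritic cells and of intraepithelial T cells, had 5.35, 6.74 and 4.20 FPKM in the KO libraries and 2.51, 2.66 and 2.36 FPKM in the WT libraries. The log2 fold change of Itgae was 0.85 with an adjusted p of 0.393 in limma (standard error 0.17), and without K82S it was 0.71 and passed the threshold (adjusted p = 0.0398), which 0.4% of all rows then did in this direction. Itgae moved in the same direction as both Itgax and the T cell genes, of which Cd3e averaged 5.13 ± 0.876 in KO against 2.51 ± 0.257 FPKM in WT, and the sources were not tested. Cd24a and Id2, which epithelium expresses as well, had log2 fold changes of -1.03 (standard error 0.55) and -0.19 (0.22), with overlap. Cd24a was highest in W83S, the library with stomach and pancreas genes, at 87.9 FPKM. It had 26.2 and 24.3 FPKM in W89S and W90S, and 11.3, 27.1 and 19.9 FPKM in the KO libraries. Monocytes were left with Plac8 of 8 genes, which enterocytes make too (793 ± 154 FPKM in KO and 1060 ± 141 FPKM in WT), and neutrophils with Mmp9 of 8 genes.

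MHC class II genes, which macrophages and dendritic cells carry but which gut epithelium can make as well, were higher in each KO library than in each WT library. All 6 tested genes of this list lay without overlap above WT (5.9% of all rows), with a median log2 fold change of 1.30. None (0) passed the threshold with all libraries in limma, where all 6 had an unadjusted p under 0.05 (2.87% of all rows), and 5 of the 6 passed it without K82S (0.4% of all rows), namely Cd74, H2-Ab1, H2-Eb1, H2-DMa and H2-DMb1. The invariant chain Cd74 averaged 1597 ± 79.7 in KO against 632 ± 96.0 FPKM in WT (SD, n = 3). Which cells Cd74 came from was not tested. Markers of all leukocytes overlapped, with sums of 38.0 to 131.8 FPKM in KO and 34.8 to 76.2 FPKM in WT over 7 genes. B cell genes split the libraries, as Cd79a and Cd79b summed to 61.3 FPKM in K82S, 23.2 FPKM in W89S and 42.7 FPKM in W90S, and to 4.59 to 6.53 FPKM in the other libraries.

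The genes with the pattern most like that of Csf1r were sought among 12093 tested genes with a name, by the root mean square difference of log2(FPKM + 1) over 6 libraries, each gene being centred on its own mean. Among the 5 nearest were Gk (0.0712), Dusp1 (0.10), Specc1l (0.104) and Foxo3 (0.104), where Csf1r itself had a root mean square spread of 0.306. Gk, a glycerol kinase, had 25.3, 27.4 and 31.7 FPKM in the KO libraries and 18.4, 21.1 and 18.3 FPKM in the WT libraries, and like Csf1r was highest in K86S. Of the other members the nearest were Itgax (0.188, place 142), C1qa (0.199, place 206) and C1qc (0.223, place 387). Lyz2 (1.34, place 11970) was among the farthest genes of all. The measure is not scaled, so a gene with a large spread lies far whatever its pattern, and the spread of Lyz2 was 1.23.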

How the data were processed

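The authors sequenced 50-base single-end reads, removed adapters with trim-galore, mapped to mm10 with HISAT2 and quantified with StringTie, and deposited FPKM values, 1 per gene and library. Tool versions and the annotation are not given in the sources used here. The authors list the mapped reads of each library, which were fewest in K86S and next fewest in K79S, both KO. The model worked on FPKM alone and did not weigh a gene by the number of its reads. Precision therefore rests on 3 mice per genotype, and the effect of uneven depth on genes of low FPKM was not tested. There were 0 columns of per-sample values without a sample.

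Names were moved to rows by rank. Names were ranked by the K79S value beside them and rows by W83S, and a name was given the row of its rank plus an offset fixed for each range of ranks, which placed 12402 of 22700 names, down to 0.954 FPKM in W83S. A list is thus cut by its level in that WT library. Printed decimals were checked against GENCODE M21: of the placed names with a single transcript 99.7% had at most 6 decimals, and of those with several 5.80%. The root mean square difference between C1qa and C1qc over the libraries was 0.0749 on the placed rows, and 0.207 and 0.221 on the rows 1 rank above and below. For C1qa and C1qb it was 0.126 against 0.624 and 0.214, and for C1qb and C1qc 0.149 against 0.453 and 0.215. The C1q genes share the same range of ranks, and the range that holds Itgax was not checked in this way.

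A row was kept if at least 2 libraries reached 1 FPKM, which left 13089. The model for log2(FPKM + 1) had genotype as its only term and came from limma 3.58.1 (R 4.3.3, eBayes with trend), after the script had been tested on simulated data. Python 3.11.15 served for ratios, permutation tests and plots, together with numpy 2.4.6, pandas 2.3.3 and matplotlib 3.10.9. The members and all lists were chosen with earlier results of these data known. By rule, the text names the members, their partners, any gene past the threshold with 6 libraries, the 3 most abundant genes of a list and the 5 genes most like Csf1r; lists of other cell types are given by their sums. Fcer1g, Itgae, Serping1, Tyrobp and Cd3e were named after their values were seen. H2-Eb1, H2-DMa and H2-DMb1 also fall outside this rule and were named because they passed the threshold without K82S. A few genes that enter these counts are not reported here by name.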

Additional observations from a re-analysis of the deposited data

How the results depend on the processing

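No paired analysis was possible because the labels do not say which KO and WT mice form a pair. Each result was recomputed under 15 alternatives. Of the 120 values of single members, 107 kept their direction. Csf1r and Itgax kept theirs in all 15, with log2 fold changes of 0.37 to 0.65 and 0.28 to 0.61, adjusted p of 0.127 to 0.76 and 0.162 to 0.76 (limma), and no overlap between the genotypes where this was counted. Their unadjusted p rose above 0.05 for Csf1r without K86S (0.0823), W83S (0.0886) or W90S (0.0860), and for Itgax without K82S (0.0544), K86S (0.0531), W83S (0.0992) or W89S (0.0594). Leaving out 1 library at a time, the members at an unadjusted p under 0.05 numbered 0 to 4 in place of 2, with 4 without K79S (C1qa and C1qb among them) and 0 without K86S or W83S, and the members without overlap numbered 2 to 5. The 5 were found without K79S, where C1qa, C1qb and C1qc joined, and 4 without K82S, where Cd14 and Lyz2 joined below WT. Without K82S and W83S together there was 1 member past the threshold (Lyz2), 1 at an unadjusted p under 0.05 and 4 without overlap, and C1qb (-0.053), C1qc (-0.022) and Cd14 (-0.41) turned, with a median of the members of -0.038. Over all settings that left out libraries C1qb ranged from -0.053 to 0.56. Cd14 was also -0.022 and -0.026 with pseudocounts of 0.1 and 0.01 and -0.20 with array weights, and -0.36 to 0.22 when 1 library was left out. Cd68 turned to 0.13 with a common sum per library and 0.062 with median ratio scaling, and ranged from -0.19 to 0.14 when libraries were left out. The common sum moved the median of all rows from -0.06 to 0.083, and that of the members to 0.38. With array weights, without K82S, and without K82S and W83S, 5 members lay above the median of all rows in place of 7. The causes were not tested.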
